A study of Rattus norvegicus with 2 samples.

Results

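Genes that the rat annotation listed only as LOC followed by a number made up 85 of the 13706 genes in the myocardial protein-coding tables. They were chosen by their measured reads, as every LOC row with at least 100 reads summed over both libraries, leaving out LOC287167 and LOC100134871. The tables held 220 LOC rows in all, and 133 of these had fewer than 100 reads. Both libraries came from myocardium of spontaneously hypertensive rats, an inbred strain with inherited high blood pressure and cardiac hypertrophy. The KXH library was from rats given KXF, the formula named in the study's title as Jiangya Kangxian Formula, at its high dose of 9.6 g/kg for 12 weeks, and the water library from rats given distilled water for the same time, both into the stomach. With 1 library per group no test between the treatments can be made. Neither label states if the RNA of a library was of 1 animal or pooled.

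A LOC name is the label that NCBI gives to a gene model without an approved symbol, and the digits are its gene ID. Such a name says when a gene was annotated, not what it does, so a set of LOC genes can hold respiratory chain subunits, regulatory peptides, non-coding RNAs and pseudogenes side by side. Looked up by ID in the present RefSeq table (GRCr8), 78 of the 85 had an entry. There, 48 now carry a gene name, 22 carry a placeholder (15 after a human open reading frame, 4 Kiaa names and 3 Rik names), 8 are still LOC, and 7 were not matched. By RefSeq gene type, 64 are protein-coding, 12 are long non-coding RNAs (lncRNAs), 1 is the RNA of the signal recognition particle (SRP) and 1 is a pseudogene. The 12 include Strit1 (LOC102546391), although it encodes a micropeptide.

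Most LOC genes had similar levels in the KXH and the water library. The ratio of RPKM values (reads per kilobase per 1000000 reads) was within 1.5-fold for 81 of the 85. The other 4 were LOC257642 and LOC100911177, higher in the KXH library, and LOC499770 (Spout1) and LOC689064 (Hbb-bs), lower in it. Spout1 was inside 1.5-fold when ratios were centred on the median of all genes (0.669). Of 8 members whose RefSeq span overlaps small nucleolar RNAs (snoRNAs), the 5 lncRNAs were at 1.21 to 1.61 times the water level and the 3 protein-coding genes at 0.871 to 0.994 times, a grouping made after the values were seen. The 8 members with mitochondrial products lay between 0.966 and 1.21 times the water level. Intervals in parentheses after a ratio are 95% exact intervals. They cover the error of counting reads and no variation between animals, so that "higher" and "lower" compare the libraries at hand.

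The protein-coding table held 14.1 × 1000000 reads for KXH and 15.1 × 1000000 reads for water, and the 85 genes took 1.11% of them in KXH and 1.09% in water. Of 10 cardiomyocyte markers, 9 were listed, at 52289 RPKM in sum in the KXH library and 48818 RPKM in the water library. Singly, 6 of the 9 were higher in the KXH library and 3 lower. The skeletal muscle myosins Myh1 and Myh2 had 1 read each in KXH and 2 each in water. Ckm, also among the skeletal muscle markers, was at 1144 RPKM in KXH and 1183 RPKM in water. The LOC members covered a wide range of levels. Their lowest, median and highest values were 1.04, 10.2 and 12898 RPKM in the KXH library and 1.41, 9.40 and 11855 RPKM in the water library.

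Spread was the property compared with the rest of the transcriptome. Over the 85 members the log2 ratio of KXH over water, computed after adding 0.5 reads to each count, had a median of -0.02 and a robust SD of 0.16. The 9718 other genes of at least 100 reads also had a median of -0.02 and a robust SD of 0.16. Fewer reads widen the spread, and the other genes had more reads, so they were also weighted to the members' numbers in 5 classes of reads. Their weighted robust SD was 0.19, somewhat wider than that of the members.

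Within classes of reads the order went both ways. At 100 to under 200 reads the robust SD was 0.38 over 21 members and 0.36 over 1022 other genes. At 200 to under 500 reads it was 0.12 over 23 members and 0.24 over 2075 other genes. The members were thus the narrower set in this class. At 500 to under 1000 reads it was 0.21 over 16 members and 0.18 over 2028 other genes. At 1000 to under 5000 reads it was 0.14 over 16 members and 0.12 over 3615 other genes, and at 5000 or more reads it was 0.12 over 9 members and 0.09 over 978 other genes. Each class holds at most 23 members. Direction also differed by class. At 500 to under 1000 reads 12 of 16 members were higher in the KXH library, against 919 of 2028 other genes. At 200 to under 500 reads 5 of 23 members were higher, against 939 of 2075 other genes. Over all classes 33 of 85 members were higher, against 4390 of 9718 other genes. Genes that bear the other common rat placeholder, RGD followed by a number, had a robust SD of 0.18 over 135 genes.

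**Figure D1:**
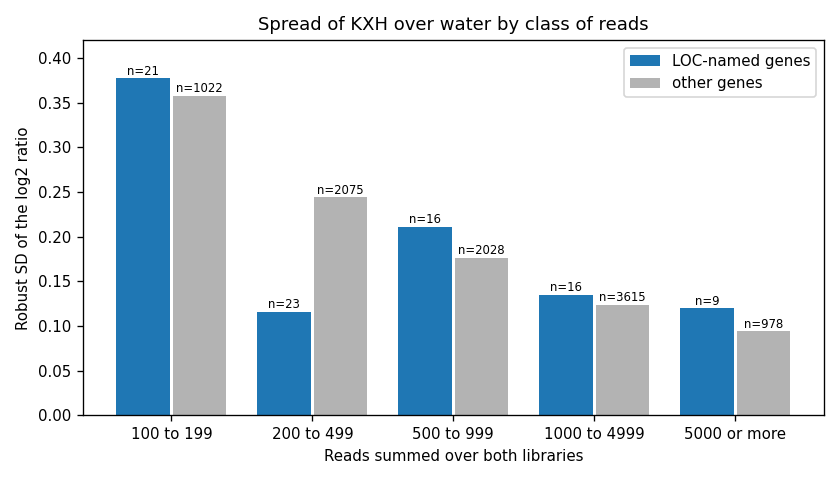
Bars give the robust SD of the log2 ratio of KXH over water in 5 classes of summed reads, for LOC-named genes (left bar, blue) and other genes (right bar, grey), with the number of genes above each bar. The spread narrowed with reads in the other genes, from 0.36 to 0.09, and the LOC-named genes were narrower in 1 class (200 to under 500 reads) and wider in 4.

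Large differences were few. At least 1.5-fold apart were 4 of 85 members, which is 4.71%, against 2.11% of other genes and 3.67% of other genes weighted to the members' classes. LOC257642, which was named in the choice of genes for its ratio, is among the 4, and without it the share was 3.57%, against 3.67% at matched reads. It was also the 1 member at least 2-fold apart. Of other genes 0.196% were 2-fold apart and 0.0206% were 2-fold higher, and nothing is read from that count. By direction, 2 members (2.35%) were at least 1.5-fold higher, against 0.669% of other genes and 1.12% at matched reads. LOC257642 is 1 of these 2, so nothing is read from the difference. Another 2 (2.35%) were at least 1.5-fold lower, against 1.44% of other genes and 2.55% at matched reads. The counting interval lay above 1 for 12 members (14.1%), LOC257642 among them, against 11.5% of other genes and 10.3% at matched reads. It lay below 1 for 11 members (12.9%), against 16.8% of other genes and 15.6% at matched reads. Together that is 27.1% of members, 28.3% of other genes and, at matched reads, 25.9% of other genes. The share of intervals that leave out 1 is near the background. The share at least 1.5-fold apart rests on 4 genes, 1 of them LOC257642, and nothing is read from it.

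**Figure D2:**
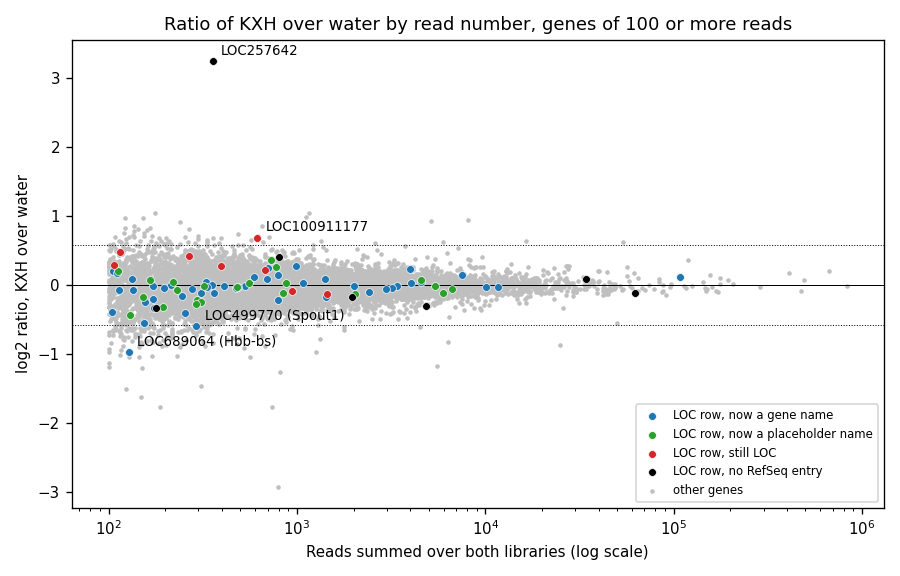
Each point is a gene of at least 100 reads, with the summed reads on a log axis and the log2 ratio of KXH over water on the vertical axis. Coloured points are the 85 LOC-named genes by their present RefSeq name and grey points the 9718 other genes, and dotted lines mark 1.5-fold. LOC257642 stands above every grey point, and 81 LOC-named genes lie between the dotted lines.

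The values of LOC257642 are a description, since its ratio led to its being named. It had 322 reads and 46.9 RPKM in the KXH library, against 36 reads and 4.89 RPKM in the water library. The ratio was 9.61 (6.79 to 13.96). It was not matched in the RefSeq table, so no function is given for it here. Its listed length is 488 bases, yet its deposited coverage was 131.56% in KXH and 126.02% in water, equal to about 642 and 615 bases. What the coverage column measures in a row above 100% was not tested. Of other genes with at least 100 reads, 2 had a coverage of over 100% by more than 1 percentage point, the calmodulin gene Calm2 at a ratio of 1.02 (0.944 to 1.09) and the ribosomal protein gene Rps13 at 1.01 (0.777 to 1.32).

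The lncRNAs that are still called LOC had the highest median ratio of the 4 groups by present name. Of these 8 genes, 6 were higher in the KXH library, with a median log2 ratio of 0.28. Of all 64 protein-coding members, 21 were higher, with a median of -0.03. Of the 8, 5 overlap snoRNA genes in RefSeq, as do 3 protein-coding members. Box C/D snoRNAs guide the methylation of ribosomal RNA, and in mammals most are cut from the introns of a host transcript, which may be a ribosomal protein mRNA or a non-coding RNA.

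LOC100911177, which lies beside Znfx1 and holds Snord12 and Snord12c, had 368 reads and 59.4 RPKM in the KXH library, against 246 reads and 36.9 RPKM in the water library. Its ratio was 1.61 (1.36 to 1.90), the highest of the 78 genes with a RefSeq entry. LOC102549726, between the heat shock gene Hspa1b and the sialidase gene Neu1, holds Snord48 and Snord52 and had 65 reads in the KXH library, against 50 in the water library (1.40, 0.951 to 2.06). LOC100909539, which overlaps Snord123, had 149 reads in KXH and 119 in water (1.34, 1.05 to 1.73). It also overlaps a protein-coding gene, LOC134485782, and reads covered 44.33% of its length in KXH and 45.02% in water. LOC100909675, which overlaps Snord93, had 57 reads in KXH and 50 in water (1.22, 0.823 to 1.83). LOC100912041, next to the amino acid transporter subunit gene Slc3a2, overlaps 7 snoRNA genes, among them Snord26 and Snord27, and had 208 reads in KXH and 185 in water (1.21, 0.986 to 1.480).

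The 5 lncRNAs had ratios above 1, and the interval left out 1 for LOC100911177 and LOC100909539, where 28.3% of other genes had such an interval. The 3 protein-coding members that overlap a snoRNA had ratios below 1 with intervals that include 1. They were KIAA0319l (LOC100294508) at 0.994 (0.942 to 1.05), Kiaa0232 (LOC680039) at 0.958 (0.913 to 1.01) and Cfap20dc (LOC361016) at 0.871 (0.636 to 1.19). The only other lncRNA gene of at least 100 reads that overlaps snoRNAs in that table was Gas5, a well-known snoRNA host, at 83 reads in KXH and 95 in water, a ratio of 0.938 (0.690 to 1.27). Among 250 other protein-coding genes that overlap a snoRNA, 124 were higher and 126 lower, with a median log2 ratio of -0.001. The 7 lncRNA members that overlap none had 3 higher and 4 lower, with a median of -0.03. They include Strit1, which RefSeq types as lncRNA and which is described below as a micropeptide gene. Znfx1, beside LOC100911177, stood at 0.816 (0.755 to 0.880). Short genes were on the whole higher in the KXH library as well, since 512 of 799 other genes under 1000 bases had a ratio above 1 (median log2 0.05), and 4 of the 5 host genes are listed at 441 to 874 bases. The part of length in these ratios was not tested.

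The remaining still-LOC lncRNAs were LOC100365289, which overlaps the phosphatase subunit gene Ppp2r3b, at a ratio of 1.16 (0.998 to 1.36), and 2 that were lower. These were LOC100910558, beside the transcription factor gene Nfib, at 0.943 (0.827 to 1.07), and LOC100910973 at 0.912 (0.821 to 1.01). Each of these intervals includes 1. Whether strand was used in counting is not given in the sources used here, so reads of LOC100365289 and Ppp2r3b cannot be told apart with certainty, and the same holds for LOC100909539 and LOC134485782.

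**Figure D3:**
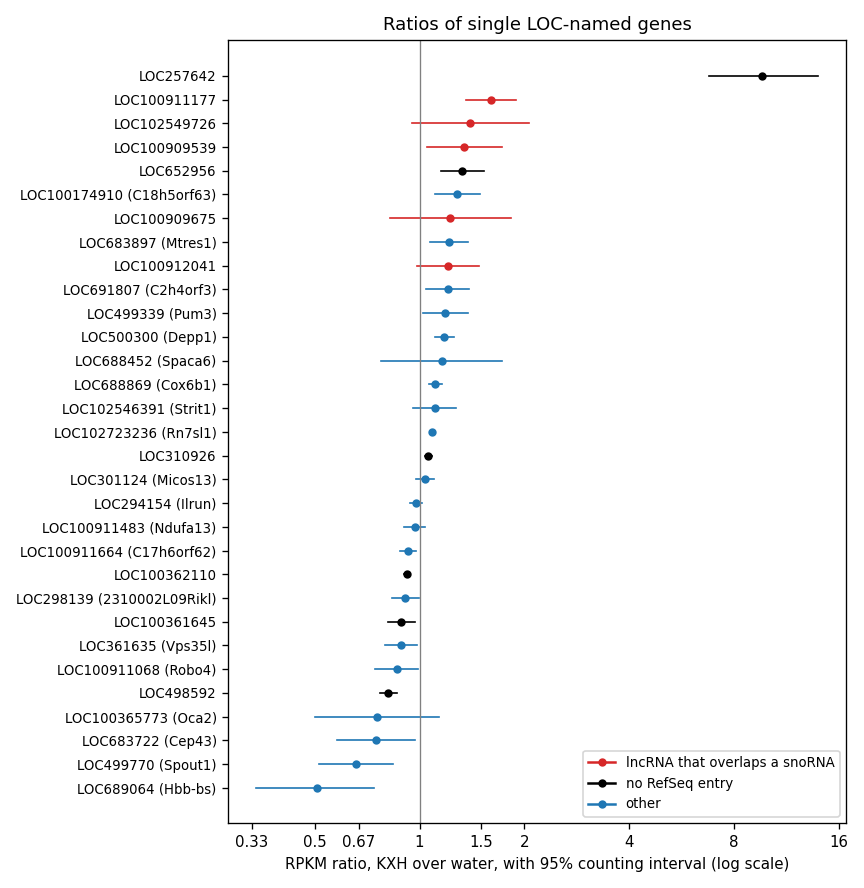
Points give the RPKM ratio of KXH over water on a log axis and lines its 95% counting interval. Shown are the LOC-named genes named by rule, the lncRNAs that overlap snoRNAs and the members at least 1.5-fold apart. The 5 lncRNAs that overlap snoRNAs (red) all lie right of 1, and genes with no RefSeq entry (black) lie on both sides, with LOC257642 at 9.61.

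The promoters of 4 members are shown, those of the highest and the lowest ratio among members of at least 200 reads with a RefSeq entry, that of a calcium pump micropeptide gene and that of a respiratory chain subunit. Each runs from 250 bases before to 50 bases after the annotated start (RefSeq, GRCr8), and LOC257642 had no entry. Capitals mark matches, on either strand, to the ETS-type letters CCGGAAGT or the NRF1-type letters CGCANGCG. ETS factors and nuclear respiratory factor 1 (NRF1) are activators found at many promoters of ubiquitously expressed genes, including nuclear genes for mitochondrial proteins.
LOC100911177 (chr3:176211080-176211379, plus strand): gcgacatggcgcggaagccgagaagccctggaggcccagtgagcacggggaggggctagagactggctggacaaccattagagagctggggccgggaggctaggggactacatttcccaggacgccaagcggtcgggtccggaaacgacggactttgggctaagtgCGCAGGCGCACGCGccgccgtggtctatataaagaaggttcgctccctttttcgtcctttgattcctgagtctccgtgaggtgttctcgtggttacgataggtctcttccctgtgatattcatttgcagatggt
LOC499770, Spout1 (chr3:33856220-33856519, minus strand): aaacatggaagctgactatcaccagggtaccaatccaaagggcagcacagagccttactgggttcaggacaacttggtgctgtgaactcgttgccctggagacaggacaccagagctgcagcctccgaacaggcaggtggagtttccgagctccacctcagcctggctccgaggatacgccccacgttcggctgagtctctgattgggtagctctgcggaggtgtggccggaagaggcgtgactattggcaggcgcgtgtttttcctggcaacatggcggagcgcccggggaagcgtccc
LOC691807, C2h4orf3 (chr2:213740269-213740568, plus strand): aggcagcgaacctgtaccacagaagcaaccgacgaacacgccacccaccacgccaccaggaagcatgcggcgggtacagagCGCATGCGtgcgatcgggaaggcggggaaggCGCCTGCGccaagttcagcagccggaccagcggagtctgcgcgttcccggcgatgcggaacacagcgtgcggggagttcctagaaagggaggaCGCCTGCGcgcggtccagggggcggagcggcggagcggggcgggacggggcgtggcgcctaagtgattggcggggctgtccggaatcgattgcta
LOC100911483, Ndufa13 (chr16:19560276-19560575, plus strand): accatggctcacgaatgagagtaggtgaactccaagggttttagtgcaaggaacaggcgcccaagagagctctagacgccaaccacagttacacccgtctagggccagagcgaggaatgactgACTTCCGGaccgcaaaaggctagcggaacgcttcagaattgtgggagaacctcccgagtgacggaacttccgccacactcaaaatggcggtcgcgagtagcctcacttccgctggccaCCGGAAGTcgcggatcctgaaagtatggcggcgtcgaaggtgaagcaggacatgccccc
LOC100911177 holds 2 NRF1-type matches that overlap each other, from -84 to -71 with the start counted as 0. C2h4orf3 holds 3, which begin at -169, -138 and -45. Ndufa13 holds 2 ETS-type matches, at -127 to -120 and -9 to -2. Spout1 holds neither set of letters in this window. Of 62 members with a promoter in the table, 12 held the NRF1-type letters (19.4%), against 8.52% of all 27457 genes, and 5 held the ETS-type letters (8.06%), against 4.20%. The 27457 genes were not limited to genes with reads in these libraries, whereas each member had at least 100 reads. The share among other genes of at least 100 reads was not computed, so nothing is read from the difference. The members' promoters also had more G and C, with a median of 58.5% against 52.3% over all genes, and both motifs are rich in these bases. A match is a description of letters and shows no binding.

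Mitochondrial products form the best-defined functional group among the members, with 8 genes. Cox6b1, a subunit of cytochrome c oxidase listed as LOC688869, was the most abundant at 618 RPKM in the KXH library, against 556 RPKM in the water library. Its ratio was 1.11 (1.06 to 1.16), from 3838 reads in KXH and 3709 in water. Mtres1, a mitochondrial transcription rescue factor listed as LOC683897, was at 32.9 RPKM in KXH and 27.2 RPKM in water, a ratio of 1.21 (1.07 to 1.38). The interval left out 1 for these 2 of the 8 (25.0%), a share near the 28.3% of other genes.

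Ndufa13, a subunit of respiratory complex I listed as LOC100911483, was at 229.7 RPKM in KXH and 237.1 RPKM in water, a ratio of 0.969 (0.903 to 1.04). The complex I assembly factor Ndufaf8 (LOC690871) had a ratio of 1.02 (0.900 to 1.15). The complex III assembly factors Uqcc3 (LOC690344) and Uqcc6 (LOC691921) stood at 0.966 (0.803 to 1.16) and 0.970 (0.725 to 1.30). Micos13 (LOC301124), part of the complex that shapes the cristae, was at 109 RPKM in KXH and 105 RPKM in water (1.04, 0.977 to 1.10). Stmp1 (LOC689574), which encodes a small mitochondrial membrane peptide, stood at 1.06 (0.954 to 1.18). The group's median log2 ratio was 0.04, 5 of its members were higher in KXH and 3 lower, and no member was 1.5-fold apart.

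Micropeptides that act on the calcium pump of the sarcoplasmic reticulum were represented by 2 members. Strit1, listed as LOC102546391 and known in mice as DWORF, stimulates the pump, whereas the product of human C4orf3, the counterpart of C2h4orf3 (LOC691807), restrains it. Strit1 was at 114.7 RPKM in KXH and 103.6 RPKM in water, a ratio of 1.11 (0.961 to 1.28). C2h4orf3 was at 26.8 RPKM in KXH and 22.2 RPKM in water, a ratio of 1.20 (1.04 to 1.39). Both were higher in the KXH library, as were 4390 of 9718 other genes. The interval of C2h4orf3 alone left out 1, where 28.3% of other genes had such an interval. Strit1 is listed at 250 bases, and 512 of 799 other genes under 1000 bases were higher too. The part of length in its ratio was not tested.

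Among RNA genes and RNA-binding factors, Rn7sl1 (LOC102723236), the RNA scaffold of the SRP that brings secretory proteins to the endoplasmic reticulum, was the most abundant member of all. It was at 12898 RPKM in KXH and 11855 RPKM in water and gave 34.9% of all reads of the 85 genes in KXH and 32.6% in water. Its ratio was 1.09 (1.08 to 1.10). Near-identical copies of this RNA make the number of its unique reads uncertain. The lncRNA Oip5-as1 (LOC100910827) was at 51.7 RPKM in KXH and 52.8 RPKM in water (0.980, 0.945 to 1.02). Pum3 (LOC499339), a nucleolar protein of the Pumilio family, stood at 1.19 (1.02 to 1.38), and the mRNA export factor Chtop (LOC361990) at 0.928 (0.856 to 1.01).

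Stress and immune regulators were represented by 4 genes. Depp1 (LOC500300), a FoxO target linked to autophagy, was at 117 RPKM in KXH and 99.6 RPKM in water, a ratio of 1.18 (1.11 to 1.26). Ilrun (LOC294154), which in human cells limits cytokine transcription, was at 105.5 RPKM in KXH and 107.9 RPKM in water (0.978, 0.941 to 1.02). Shfl (LOC500956), an antiviral factor in human cells, had 66 reads in KXH and 67 in water, and Cybc1 (LOC619574), a chaperone of the phagocyte NADPH oxidase, had 344 reads in KXH and 347 in water. The interval left out 1 for Depp1 alone of these 4, a share near that of other genes.

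**Figure D4:**
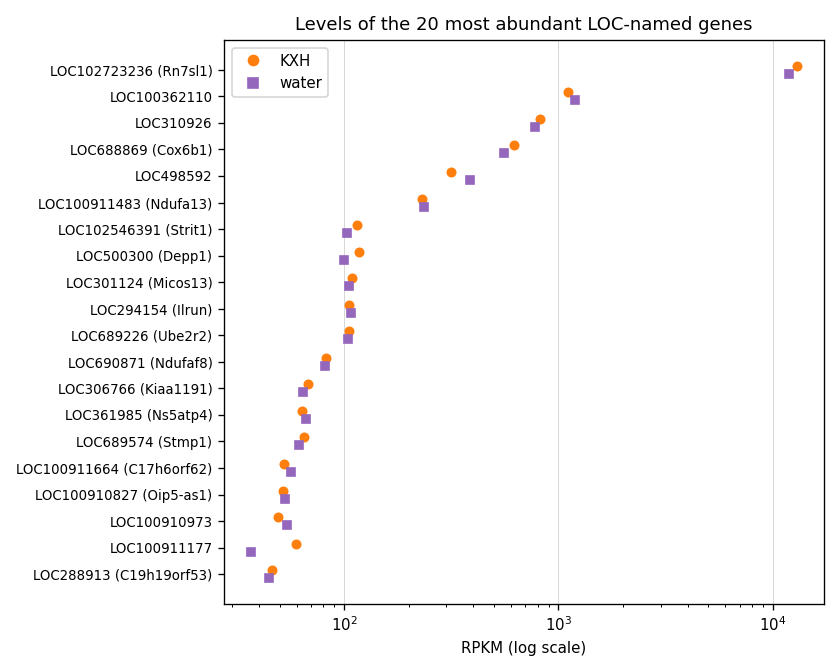
RPKM on a log axis in the KXH library (circles) and the water library (squares) for the 20 LOC-named genes of highest mean RPKM. The pairs lie close together over the whole range, from 12898 RPKM in KXH and 11855 RPKM in water for Rn7sl1 down to a mean of about 45 RPKM. LOC100911177 has the widest gap, at 59.4 RPKM in KXH and 36.9 RPKM in water.

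Further members with intervals that leave out 1 have varied roles. The zinc finger gene Zfp455l1 (LOC680200) had 60 reads in KXH and 95 in water (0.678, 0.483 to 0.947). Spout1 (LOC499770), a protein with a SPOUT methyltransferase fold, had 111 reads and 4.95 RPKM in KXH, against 181 reads and 7.52 RPKM in water, a ratio of 0.659 (0.515 to 0.839). Cep43 (LOC683722), a centrosomal protein, had 105 reads in KXH and 150 in water (0.752, 0.580 to 0.971). Vps35l (LOC361635), a subunit of the endosomal retriever complex, was at 15.2 RPKM in KXH and 17.2 RPKM in water (0.886, 0.797 to 0.985). Katnip (LOC361646), a cilium-associated protein, stood at 0.988 (0.830 to 1.18) and Ube2r2 (LOC689226), a ubiquitin-conjugating enzyme, at 1.02 (0.955 to 1.08), both with intervals that include 1. The placeholders C17h6orf62 (LOC100911664) and 2310002L09Rikl (LOC298139) stood at 0.926 (0.880 to 0.975) and 0.911 (0.834 to 0.995). In the other direction the placeholder C18h5orf63 (LOC100174910) was at 25.9 RPKM in KXH and 20.2 RPKM in water (1.28, 1.10 to 1.49).

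Robo4 (LOC100911068), a receptor of endothelial cells, was at 6.67 RPKM in KXH and 7.76 RPKM in water, a ratio of 0.860 (0.745 to 0.991). All 6 endothelial markers were lower in the KXH library too, at 366 RPKM in sum in KXH and 414 RPKM in water, and their part in the Robo4 ratio was not tested. In bulk tissue, fewer cells of a type and less RNA per cell cannot be told apart. The Wnt receptor gene Fzd7 (LOC100360552) had 171 reads in KXH and 184 in water (0.998, 0.806 to 1.24).

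Hbb-bs (LOC689064), a beta-globin gene, had the lowest ratio of the 85 at 41 reads and 4.76 RPKM in KXH, against 87 reads and 9.40 RPKM in water (0.506, 0.340 to 0.742). It has under 200 reads, was covered over 54.65% of its length in KXH and 56.28% in water, and was named after its value was seen. Of 5 erythroid markers 4 were listed, with 2265 RPKM in sum in KXH and 3330 RPKM in water. Hbb, Alas2 and Slc4a1 were lower in the KXH library with intervals below 1. Ahsp was nearly equal, at 24 reads in KXH and 26 in water (0.991, 0.545 to 1.80). Hbb alone had 2234 RPKM in KXH and 3283 RPKM in water. Their part in the ratio of Hbb-bs was not tested. Reads of near-identical globin genes can be split between rows. Both LOC genes left out of the set were also lower in KXH, LOC100134871 at 206 RPKM in KXH and 318 RPKM in water, and LOC287167, which was listed in the water table alone, with 15.6 RPKM.

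The 7 genes not matched in RefSeq held some of the most abundant rows. LOC100362110 had 28906 reads and 1102 RPKM in KXH, against 33787 reads and 1199 RPKM in water (0.919, 0.905 to 0.933). LOC310926 had 16990 reads in KXH and 17197 in water (1.06, 1.04 to 1.08). LOC498592 was at 316 RPKM in KXH and 388 RPKM in water (0.813, 0.768 to 0.861). LOC652956 was at 25.2 RPKM in KXH and 19.0 RPKM in water (1.33, 1.15 to 1.53), and LOC100361645 at 35.9 RPKM in KXH and 40.5 RPKM in water (0.887, 0.810 to 0.970). With LOC257642, 3 of the 7 had intervals above 1 and 3 below 1. That is 85.7% of the 7, against 28.3% of all other genes of at least 100 reads. Such intervals grow more frequent with reads. Among other genes 55.7% left out 1 at 5000 or more reads, 31.5% at 1000 to under 5000 and 17.0% at 100 to under 200. Only LOC100362110 and LOC310926 had 5000 or more reads. The 7 genes are few and include LOC257642, named for its ratio, so nothing is read from this count. LOC257650, at 76 reads in KXH and 103 in water, had an interval that includes 1 (0.793, 0.581 to 1.08).

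Partial coverage was more frequent among the LOC rows than among other genes. In 8 of 85 members (9.41%) less than 60% of the listed length carried reads in both libraries, against 70 of 9718 other genes (0.720%), or 1.09% of other genes at matched reads. LOC100362110 was covered over 57.56% of its 1866 bases in KXH and 57.66% in water, and LOC310926 over 54.59% of 1471 bases in KXH and 54.66% in water. Their 28906 and 16990 reads in the KXH library thus fell on about 1074 and 803 bases. Clec2d2l3 (LOC500331) was covered over 11.5% of 1435 bases in both libraries, so that all its 160 reads in KXH and 175 in water lay on about 165 bases. Gon7 (LOC100233176), a subunit of a transfer RNA modifying complex, was covered over 14.38% of its length in KXH and 31.3% in water at nearly equal reads (131 and 146). For LOC100361645 the covered part was 51.62% in KXH and 31.85% in water. RPKM divides by the whole listed length, so levels of these rows understate the density over the covered bases. The ratio between the libraries does not contain the length.

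**Figure D5:**
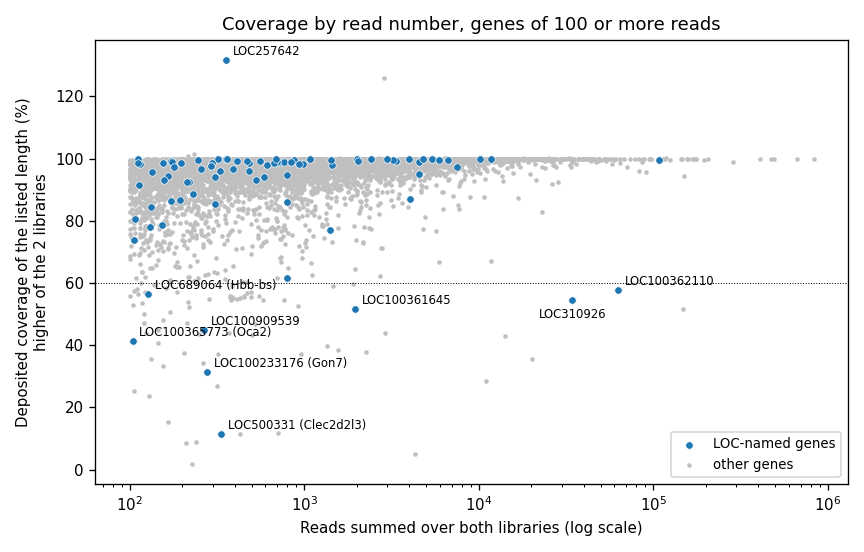
Deposited coverage of the listed length, in the library where it was higher, against summed reads on a log axis. Of the LOC-named genes (blue) 8 lie under the dotted line at 60% and LOC257642 lies above 100%, while other genes (grey) under 60% are 70 of 9718.

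For 3 members the table also held a row under the gene's present symbol. LOC100911068, now Robo4, had 353 reads in KXH and 441 in water, while the row named Robo4 had 1 read in KXH and 2 in water, covering 5.2% of its length in KXH and 5.3% in water. LOC361985, now Ns5atp4, had 1399 reads in KXH and 1568 in water (0.958, 0.891 to 1.03), while the row named Ns5atp4 had 37 in KXH and 52 in water (0.764, 0.487 to 1.19). LOC100365921, now Pigy, a subunit of the enzyme that starts glycosylphosphatidylinositol anchors, had 112 reads in KXH and 134 in water (0.898, 0.692 to 1.16), while the row named Pigy had 1141 in KXH and 1182 in water (1.04, 0.955 to 1.13). The reads of Robo4 and Ns5atp4 were thus found mostly under the LOC name, and those of Pigy mostly under its symbol.

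The threshold of 100 reads passed through rows of similar values. Just inside it were LOC100365773 (Oca2) with 43 reads in KXH and 61 in water, LOC688452 (Spaca6) with 55 in KXH and 51 in water, and LOC100909675 with 57 in KXH and 50 in water. Just outside it were LOC680254 with 48 reads in KXH and 51 in water, LOC56764 with 53 in KXH and 46 in water, and LOC100911367 with 53 in KXH and 39 in water. Each of these 6 intervals includes 1. At about 100 reads an interval runs from about 0.67 to 1.53 around a ratio of 1, as in LOC680254, so smaller differences were not detectable at this depth.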

How the data were processed

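Myocardial RNA of 1 KXH and 1 water library was extracted with Trizol and made into Illumina TruSeq libraries, per the labels' protocols, and groups were taken from the agent label. The authors deposited, per gene, a whole count of reads called unique in the file headers, a listed length, a percent coverage and an RPKM value. The deposited RPKM equals the count per kilobase and per 1000000 reads of the table, checked to a relative difference of 1e-09. Bowtie 0.12.2 and rn6 are named in the submitters' processing notes with no role given. For the counter, annotation, filters and use of strand, the entry is not given in the sources used here. Genes missing from 1 table were given 0 reads. The lncRNA tables hold no LOC row and were not used.

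Members and lists were chosen with earlier results of these data known. Log2 ratios used reads plus 0.5 scaled by table totals, because adding 1 RPKM shrinks long genes more at equal reads. Printed ratios are RPKM ratios with nothing added. Their 95% Clopper-Pearson intervals, on the share of reads from KXH, leave out all but the error of counting, and without molecular identifiers PCR copies count as separate reads. The robust SD is the scaled median absolute deviation. Genes named are LOC257642, up to 12 per direction of at least 200 reads with an interval leaving out 1 (12 higher and 9 lower), the 10 most abundant and those next to the read threshold. Members described by function, by snoRNA or by coverage were added after their values were seen. The RefSeq table gives symbols, gene types and neighbours, without descriptions, so grouping by description and by near-identical protein was not run. Other scalings, pseudocounts, read minimums and memberships were tried. Steps were tested on simulated data. The tools were numpy 2.4.6 and scipy 1.17.1 for statistics, pandas 2.3.3 for tables and matplotlib 3.10.9 for plots, in Python 3.11.15.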

Additional observations from a re-analysis of the deposited data

How the results depend on the processing

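The ratio of LOC257642 (9.61, or 9.49 with 0.5 reads added) ranged from 8.14 to 9.62 over 5 alternatives, and 16 of the 28 genes named by rule were above 1 under each of them. Most of the 28 were picked for intervals that leave out 1, so this count could hardly move. The robust SD of the log2 ratio was 0.16, where other genes at matched reads had 0.19. The members' value kept within 1.5 times under 17 of 22 alternatives, but its order against other genes changed. Some of the 17 were fixed in advance. Rescaling the libraries adds a constant to each log2 ratio and cannot move a spread, and no member was of unequal listed length. The members' robust SD was 0.46 with no minimum of reads (218 genes) and 0.25 in the 8 genes still named LOC. Other genes at matched reads had 0.49 and 0.21. Other measures of spread gave 0.43 as a standard deviation, 0.24 as one without LOC257642, and 0.58 as a central 80% range, where other genes at matched reads had 0.25, 0.25 and 0.58. Values of other genes at matched reads follow in parentheses. The share at least 1.5-fold apart (4.71%) was 37.6% with no minimum (37.0%), 4.69% at 200 or more reads (1.53%), 0% at 1000 or more reads (0.454%), and 12.5% in genes still named LOC (3.72%). It was 3.53% under trimmed-mean scaling and median centring (3.74%) and with 1 RPKM added (1.04%), where Spout1 was inside 1.5-fold. It was 3.57% without LOC257642 (3.67%), and 6.90% with both excluded genes put back (3.70%). Both excluded genes are themselves at least 1.5-fold lower in KXH, and LOC287167 had reads in the water library alone, so this rise was fixed in advance. The share was 1.18% for 2-fold (0.345%) and 16.5% for the smaller fold tried (17.1%). LOC257642, named for its ratio, is the whole of the 2-fold share. It is also part of the shares at 200 or more reads and with 1 RPKM added, so nothing is read from these differences. The share of intervals leaving out 1 (27.1%) was 15.1% with no minimum (14.5%), 41.5% at 500 (34.0%) and 40.0% at 1000 or more reads (40.2%), and 17.6% with 99% intervals (15.4%). The median log2 ratio (-0.02) was 0.28 in genes still named LOC. Centring on the median of all genes moved each log2 ratio by 0.02. Rn7sl1 (LOC102723236) then stood at 1.10, just past its interval. Leaving out the 5 lncRNAs that overlap snoRNAs, the genes without a RefSeq entry or those of partial coverage, chosen after seeing the data, gave 3.75%, 3.85% and 3.90% at least 1.5-fold apart. It gave 26.2%, 21.8% and 23.4% of intervals leaving out 1 (26.3%, 25.2% and 25.5%). Leaving out members with near-identical proteins was not run. No paired analysis was possible because each group has 1 library. Depth limits single ratios under about 200 reads, and no alternative stands in for further animals.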
